A study of Mus musculus with 9 samples.

Results

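The 58 genes described here are the Wnt ligands, their receptors, the secreted proteins that amplify or block them, and a set of genes known as targets or feedback regulators of the pathway. They were taken by symbol from the 43644 genes of the deposited table, where all 58 were found and all 58 passed the filter on low values. They comprise 19 Wnt ligands, 10 Frizzled receptors, 2 LRP co-receptors, 7 R-spondins and Lgr receptors, 10 secreted inhibitors and 10 target or feedback genes. RNA came from the coronal suture, where the frontal bone meets the parietal bone, of C57BL/6 mice aged 7 months. There were 3 groups of 3 libraries. WT was wild type without surgery, MUT was Twist1+/- without surgery, and REG was Twist1+/- with suture regeneration surgery at 1 month of age. MUT and REG therefore share the genotype and differ in the surgery, WT and MUT differ in the genotype, and REG and WT differ in both. No operated wild-type group is among the samples, and no label ties a library to an animal of its own, so a p-value here sets a difference against the spread of 3 libraries, which may be technical.

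Wnt proteins are secreted lipid-modified signals that bind Frizzled receptors. In the canonical branch they bind together with the co-receptors LRP5 or LRP6, which stops the breakdown of beta-catenin and lets it act with TCF/LEF factors in the nucleus. Other branches run through Ror and Ryk receptors and the planar polarity proteins. R-spondins and Lgr receptors keep Frizzleds at the cell surface. SFRP, DKK and WIF1 proteins are secreted, and most are known to block ligand or co-receptor. They were grouped here as inhibitors by symbol, Dkk3 included. In the cranial sutures the pathway is known for its part in osteoblast differentiation, and Axin2 marks stem cells of the suture. Twist1 encodes a basic helix-loop-helix transcription factor whose loss of 1 copy is known to fuse the coronal suture.

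Sfrp2 and Fzd1 were lower and Fzd4 was higher in MUT under each setting tried. Sp5 and Dkk1 are known direct targets of TCF/LEF factors, although Dkk1 was called in no comparison. The promoters of these 5 genes are shown. Each is the 250 bases before the RefSeq start site (GRCm38.p6), 5′ to 3′ on the gene's strand, in lower case. Capitals mark the TCF/LEF words (CTTTGAA, its variant CTTTGAT, its variant CTTTGTA and its variant CTTTGTT) and the E-box words (CATATG, its variant CATCTG and its variant CACCTG), on either strand. E-boxes are the words bound by basic helix-loop-helix proteins such as Twist1. The stretches are chr3:83766071-83766320 (plus strand), chr5:4758217-4758466 (minus), chr7:89404116-89404365 (plus), chr2:70474673-70474922 (plus) and chr19:30549497-30549746 (minus).
Sfrp2: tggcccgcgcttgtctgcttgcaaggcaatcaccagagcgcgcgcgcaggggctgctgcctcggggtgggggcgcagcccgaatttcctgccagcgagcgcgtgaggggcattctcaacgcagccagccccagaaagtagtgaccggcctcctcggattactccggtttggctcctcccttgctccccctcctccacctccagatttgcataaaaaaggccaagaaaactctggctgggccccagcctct
Fzd1: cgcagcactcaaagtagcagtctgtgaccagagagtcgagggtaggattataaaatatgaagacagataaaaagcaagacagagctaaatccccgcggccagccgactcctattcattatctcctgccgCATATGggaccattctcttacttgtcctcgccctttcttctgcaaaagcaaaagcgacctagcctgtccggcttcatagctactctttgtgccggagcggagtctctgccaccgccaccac
Fzd4: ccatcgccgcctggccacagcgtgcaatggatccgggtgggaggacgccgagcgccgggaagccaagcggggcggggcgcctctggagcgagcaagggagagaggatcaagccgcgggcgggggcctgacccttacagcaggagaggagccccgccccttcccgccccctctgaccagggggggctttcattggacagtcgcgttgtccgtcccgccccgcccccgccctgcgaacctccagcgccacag
Sp5: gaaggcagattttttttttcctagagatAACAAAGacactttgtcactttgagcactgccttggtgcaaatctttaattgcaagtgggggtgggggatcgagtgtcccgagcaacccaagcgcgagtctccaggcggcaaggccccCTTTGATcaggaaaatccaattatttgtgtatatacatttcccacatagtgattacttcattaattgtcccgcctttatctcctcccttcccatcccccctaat
Dkk1: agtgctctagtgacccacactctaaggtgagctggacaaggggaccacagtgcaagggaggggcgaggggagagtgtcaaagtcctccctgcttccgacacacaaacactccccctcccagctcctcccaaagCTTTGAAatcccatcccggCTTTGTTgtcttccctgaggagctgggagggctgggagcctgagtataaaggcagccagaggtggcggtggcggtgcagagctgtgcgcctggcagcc
Sp5 held 2 TCF/LEF words, starting at -222 and -104 from the start site, and Dkk1 held 2, at -117 and -98. Fzd1 held 1 CATATG, at -121, and none of the words was in the windows of Sfrp2 and Fzd4. Of the 58 genes, 38 had a RefSeq entry, with 46 promoters in all. A TCF/LEF word was present in 6 of the 46 (13%), beside 14.8% of 32851 promoters. CATATG was in 1 of 46 (3.46% of all promoters), CATCTG in 2 (4.35%, beside 14.4% of all) and CACCTG in 11 (23.9%, beside 17.2% of all). No test was made of these shares. Wnt7b, Sfrp4 and Dkk3 had no entry.

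The libraries differed in ways that touch all values below. Estimated reads per library were 16356391 to 20019712 for WT, 2945636 to 10894209 for MUT and 18276494 to 39377876 for REG, so low values were least precise in MUT. Twist1 itself, the targeted gene, had values of 16.2, 23.3 and 23.1 for WT, 0.987, 8.08 and 0.548 for MUT and 3.76, 9.19 and 12.2 for REG, and MUT was lower than WT (log2 change -3.26, SE 0.76, adjusted p = 0.0109). Genes of olfactory and vomeronasal receptors, which bone is not known to use, served as a measure of background. The sum over 1747 such genes, in RPM (reads per 1000000 estimated reads), was 2442 ± 877 for WT, 12930 ± 3880 for MUT and 2651 ± 1963 for REG (SD, n = 3). The mitochondrial share of reads was 11.4 ± 1.91% for WT, 3.02 ± 1.52% for MUT and 12.5 ± 2.91% for REG (SD, n = 3). The MUT libraries thus stood apart in depth, background and mitochondrial share. REG, of the same genotype as MUT, had a mean background and mitochondrial share near those of WT. In MUT against WT the gap cannot be told apart from the genotype, and in REG against MUT not from the surgery. Within REG, replicate 3 stood apart from replicates 1 and 2: without it 1604 genes were called between REG and WT, and with all 3 libraries none. The column names of the matrix part them too. Those of REG replicates 1 and 2 have a form of their own and repeat the numbers that end the names of WT replicates 2 and 3. That of REG replicate 3 has the form and running numbers of most WT and MUT columns. The exception is MUT replicate 2, whose column begins with other letters than those of MUT replicates 1 and 3. It also had the fewest estimated reads (2945636) and the lowest receptor background in MUT (8555 RPM, beside 14282 and 15953 in replicates 1 and 3). What the forms stand for is not stated. With REG replicate 3 as the single REG library, assumed to vary like the other groups, 14 of the 57 genes then tested were called for REG against MUT, 9 higher and 5 lower (16.1% and 19% of all genes). Of the 8 higher and 12 lower calls from all 3 libraries, 7 and 2 were among them. Each listed marker of osteoblasts, osteocytes and suture mesenchyme had 3 or more estimated reads in every library. This bar is low in MUT, since the median receptor gene had 20.2 reads per kilobase in replicate 1. The markers were not set against the receptor genes. For osteocytes, 5 summed markers took 706 to 850 RPM in WT, 177 to 427 in MUT and 383 to 688 in REG. Summed osteoblast markers (8 genes) took 54331 to 85747 RPM in WT, 8258 to 50279 in MUT and 37184 to 76661 in REG. Summed suture mesenchyme and fibroblast markers (7 genes) took 10427 to 18602 in WT, 331 to 810 in MUT and 9994 to 12540 in REG. In bulk RNA, fewer cells of a type and less RNA per cell cannot be told apart.

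Fewer of the 58 genes stood clear of that background in MUT than in WT. In RPM per kilobase of exon, the 95th percentile of the receptor genes lay at 0.563, 0.283 and 0.469 for WT, 4.86, 3.89 and 6.95 for MUT, and 1.34, 2.95 and 0.218 for REG. In WT, 42 of the 58 genes were above it in all 3 libraries, in MUT 7, and in REG 18. The percentile itself was higher in each MUT library than in any WT or REG library. The share of all genes above it was not computed, so whether these counts are particular to the 58 genes was not tested. The 7 in MUT were Wnt5a, Fzd4, Wif1, Lrp5, Lrp6, Rspo1 and Rspo2. Every gene outside these 7 was at or under that percentile in at least 1 MUT library. In MUT, 34 of the 58 were above it in no library, Wnt5b, Wnt10b, Fzd5, Fzd8 and Dkk3 among them, beside 6 in WT and 7 in REG. Twist1, not one of the 58, had 3.35, 16.7 and 1.96 RPM per kilobase in MUT, under that percentile in replicates 1 and 3.

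**Figure D1:**
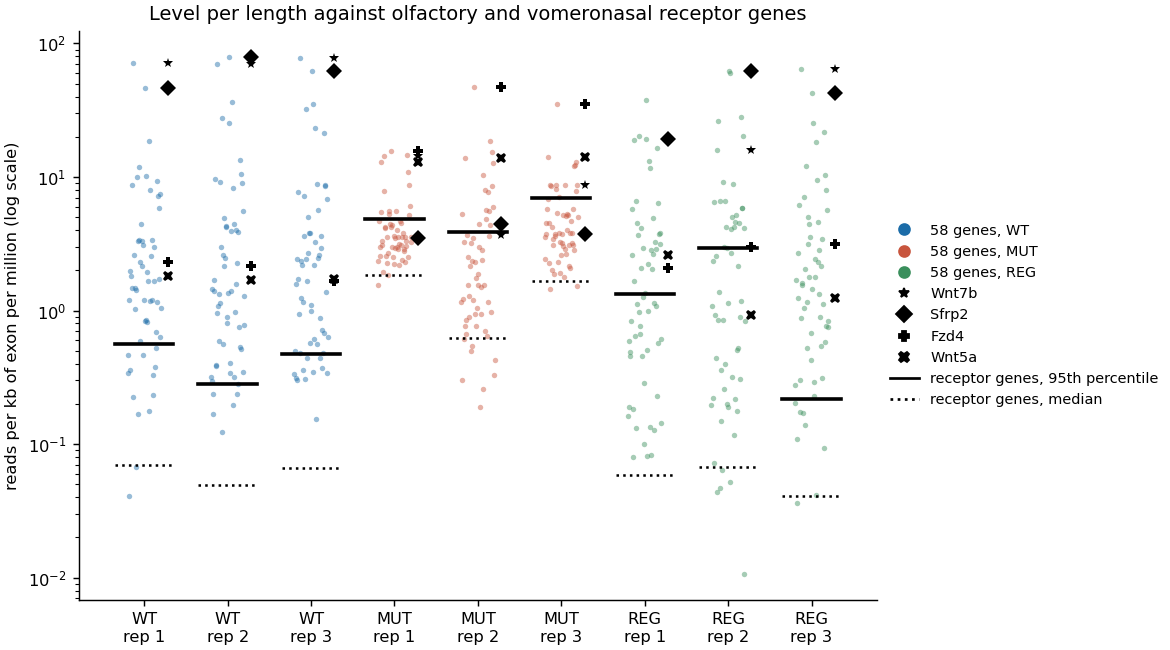
Level of each of the 58 genes in RPM per kilobase of exon (log axis) in the 9 libraries, with the 95th percentile (line) and median (dots) of 1747 olfactory and vomeronasal receptor genes; 4 genes are marked at the right of each library. In MUT the receptor lines rise to 3.89 or more at the 95th percentile, and Fzd4 and Wnt5a stay above them while Sfrp2 drops to near them.

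Across all genes, the 3 comparisons were fitted together and called means an adjusted p under 0.05. For MUT against WT, 14 of the 58 genes were called (24.1%), beside 35.1% of all 29107 genes tested. Of these, 3 were higher (5.17%, beside 20.5% of all genes) and 11 were lower (19%, beside 14.6%). For REG against MUT, 20 were called (34.5%, beside 36.6%), 8 of them higher (13.8%, beside 11.8%) and 12 lower (20.7%, beside 24.8%). For REG against WT none of the 58 was called, nor any other gene (background 0%); 16 of the 58 and 2755 of all genes had an unadjusted p under 0.05, and the smallest adjusted p of a member was 0.466. Leaving out WT replicate 2 or 3 lowered the first count from 14 to 8 or 9, and leaving out MUT replicate 1 or 3 lowered the second from 20 to 9 or 8. The median log2 change over the 58 genes was -0.05 for MUT against WT (all genes 0.18), -0.28 for REG against MUT (all genes -0.36) and -0.52 for REG against WT (all genes -0.18). REG against MUT and MUT against WT share the MUT libraries, so their values are given side by side and not as support for one another; 10 genes were called in both.

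The balance of higher and lower calls depended on how libraries were scaled. For MUT against WT the split of 3 higher and 11 lower became 1 and 22 with trimmed-mean scaling, 4 and 9 with quantile scaling, 17 and 6 with total-read scaling, and 5 and 7 after background subtraction. For REG against MUT the split of 8 and 12 became 21 and 1, 4 and 5, 4 and 19, and 3 and 5 in the same order. These scalings put the median of all genes in MUT against WT at -0.79, -0.03, 1.11 and 0.28. The calls kept under each alternative tried were Fzd4 (higher) and Wnt5b, Wnt7b, Fzd1, Sfrp2, Sfrp4 and Dkk3 (lower) in MUT against WT, 7 of 14, and Sfrp2 and Sfrp4 (higher) in REG against MUT, 2 of 20.

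**Figure D2:**
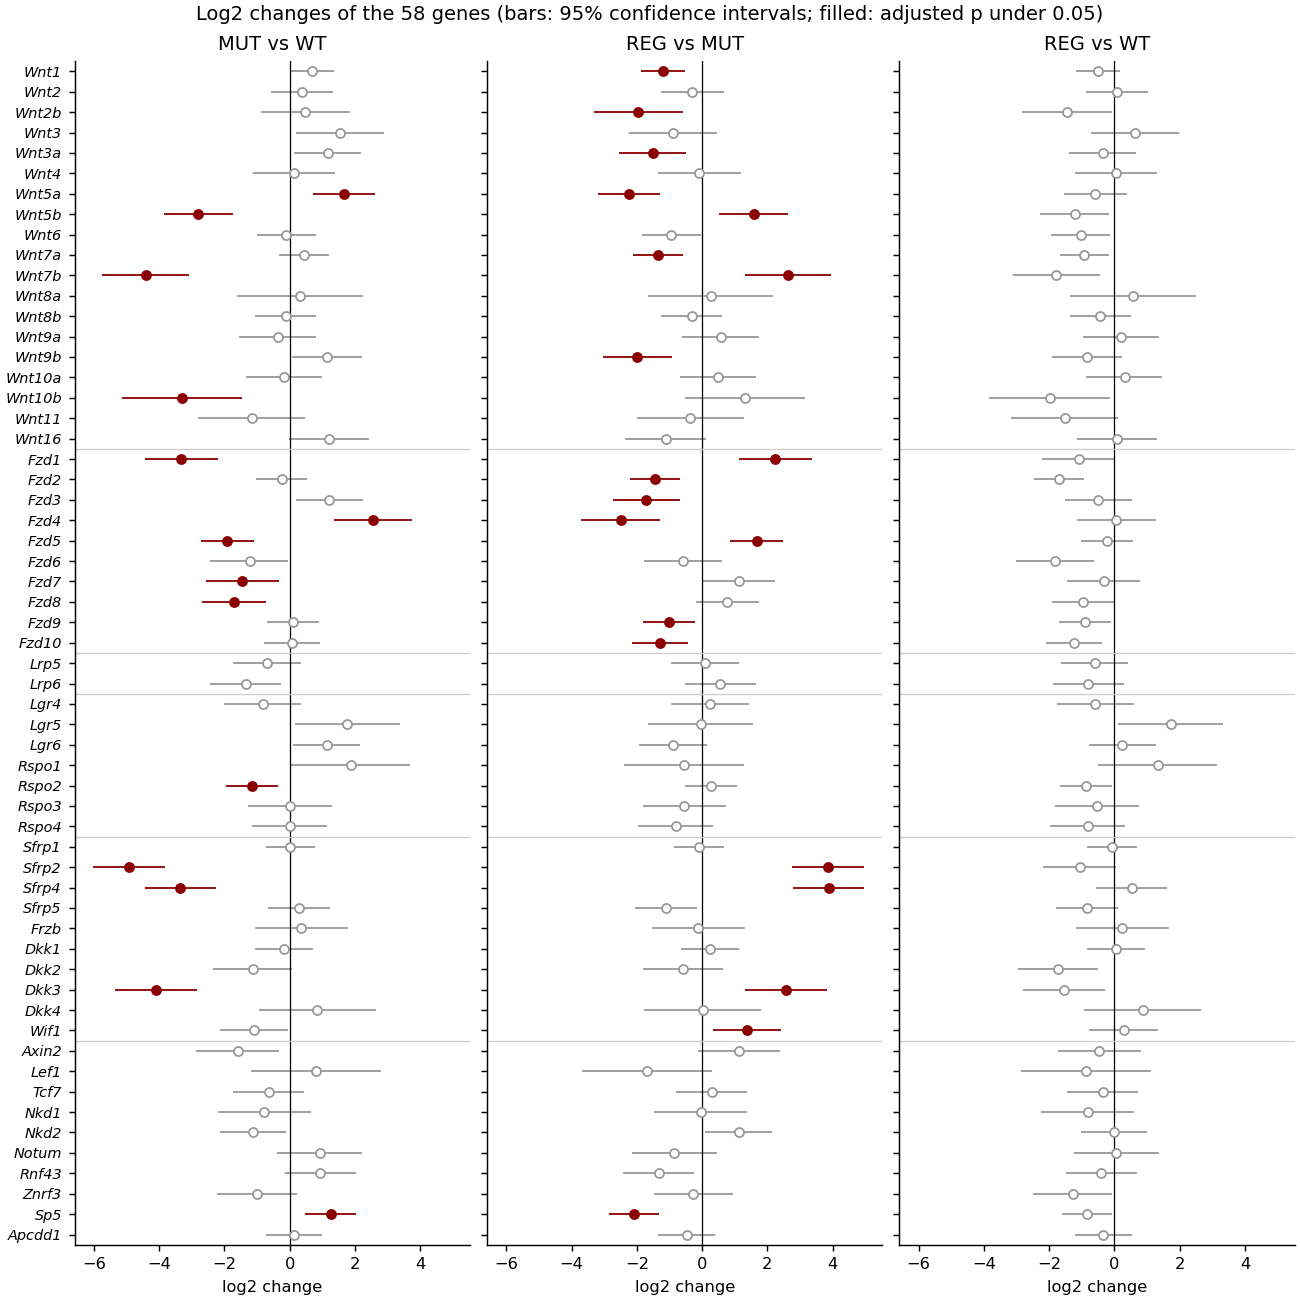
Log2 change of each of the 58 genes (dots) with its 95% confidence interval (bars) in the 3 comparisons; filled dots were called at an adjusted p under 0.05 and lines part the roles. The lowest values for MUT against WT are those of Sfrp2 (-4.93), Wnt7b (-4.41) and Dkk3 (-4.11), and no dot is filled for REG against WT.

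Among the ligands, Wnt7b was by far the most abundant in WT and fell most in MUT. Wnt7b (ENSMUSG00000022382, chr15:85535437-85582473, mm10, minus strand) encodes a ligand known to promote bone formation. Its values were 160.1, 181 and 181 for WT, 12.5, 5.38 and 7.09 for MUT and 34.0, 26.3 and 142 for REG. All MUT values lay below all others, and in REG replicate 3 was near WT while replicates 1 and 2 were between the groups. MUT was 21.3-fold lower than WT (log2 change -4.41, SE 0.60, adjusted p = 0.0015). REG was 6.19-fold higher than MUT (log2 change 2.63, SE 0.60, adjusted p = 0.00894), a call that quantile scaling (adjusted p = 0.0915) and background subtraction (adjusted p = 0.111) did not keep. Per length, Wnt7b had 70.8, 70.0 and 77.4 RPM per kilobase in WT, against a mean of 8.82 for Wnt10b and 8.69 for Wnt5b, the next ligands, whose ranges overlapped. In MUT it had 14.3, 3.67 and 8.75, which in replicate 2 was under the 95th percentile of the receptor genes.

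The make-up of the ligand reads changed with it. Wnt7b took 73.9, 74.8 and 76.1% of all reads of the 19 ligands for WT, 19.9, 8.26 and 11.9% for MUT, and 45.7, 38.2 and 76.7% for REG. In each MUT library the leading ligand was Wnt5a, with 29.0, 49.6 and 30.5% of ligand reads. The 19 ligands together had 458 to 498 RPM in WT, 218 to 359 in MUT, and 203, 203 and 414 in REG. The share does not depend on the scaling between libraries, and after background subtraction Wnt7b still took 26.6, 8.41 and 13.995% in MUT and at least 74.5% in WT.

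**Figure D3:**
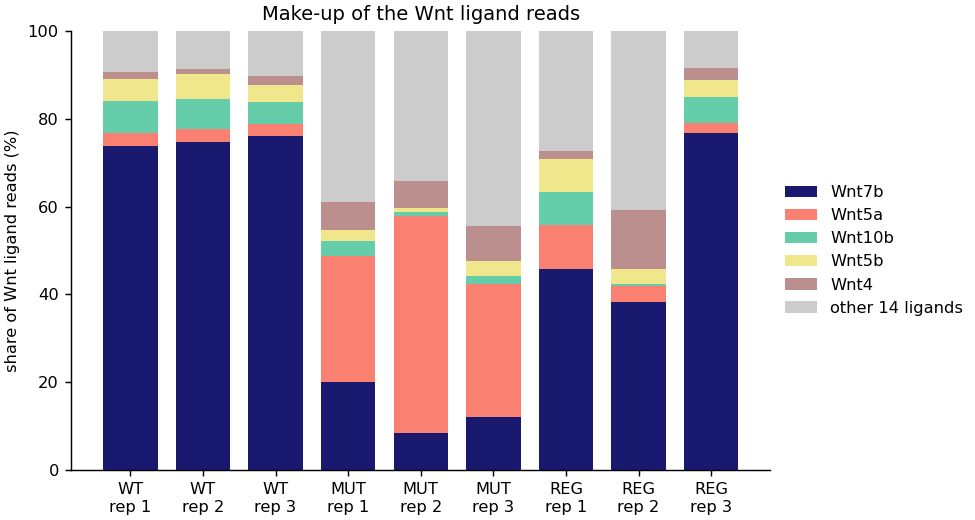
Share of the summed reads of the 19 Wnt ligands (%, stacked bars) taken by the 5 ligands with the highest mean value and by the other 14, in each of the 9 libraries. Wnt7b fills 73.9 to 76.1% in WT and 76.7% in REG replicate 3, and Wnt5a is the largest named share in all 3 MUT libraries.

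Wnt5a, a ligand of the branches that do not use beta-catenin, went the other way. Its values (ENSMUSG00000021994, chr14:28504750-28527448) were 6.63, 7.00 and 6.51 for WT, 18.2, 31.8 and 18.1 for MUT and 7.49, 2.45 and 4.34 for REG. Every MUT value was above every WT and REG value. MUT was 3.14-fold higher than WT (log2 change 1.65, SE 0.43, adjusted p = 0.0163) and REG 4.73-fold lower than MUT (log2 change -2.24, SE 0.43, adjusted p = 0.00484). Trimmed-mean scaling ended both calls (adjusted p = 0.236 and 0.203). The first was also lost without any 1 WT library or MUT replicate 2 (adjusted p from 0.0504 to 0.0612). At 13.1, 13.8 and 13.996 RPM per kilobase, Wnt5a in MUT was above the receptor genes in each library. Summed markers of some other cell types were also at higher levels in MUT: keratinocyte markers (8 genes) took 16.5 to 27.0 RPM in WT, 279 to 840 in MUT and 11.8 to 22.8 in REG. Neuron markers (7 genes) took 29.4 to 43.1, 216 to 343 and 30.6 to 75.7, and B cell markers (5 genes) 12.9 to 77.0, 1608 to 5374 and 69.3 to 223. No gene of these 3 lists was under 3 reads in every library, and 3 keratinocyte genes were under it in WT replicate 2. By gene, 2 of 8 keratinocyte markers were called higher and 1 lower in MUT than in WT, 3 of 7 neuron markers higher and 1 lower, and 2 of 5 B cell markers higher and none lower, beside 20.5% higher and 14.6% lower of all genes. Their part in the higher values of Wnt5a and Fzd4 was not tested. Wnt5a shares 358 exon bases with Gm2670 on the opposite strand, which had values of 2.76 to 6.79 in MUT and 0.517 to 0.633 in WT; whether the counting used strand is not stated in the labels.

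Wnt5b and Wnt10b followed Wnt7b in MUT. Wnt5b, another ligand of the beta-catenin-independent kind, had values of 10.7, 13.6 and 9.80 for WT, 1.47, 0.699 and 2.01 for MUT and 5.66, 2.31 and 7.36 for REG, with no overlap of the groups. It was 6.96-fold lower in MUT than in WT (log2 change -2.80, SE 0.47, adjusted p = 0.00303) and 2.99-fold higher in REG than in MUT (log2 change 1.58, SE 0.47, adjusted p = 0.0258). The second call was lost under 9 of 23 alternatives: with total-read scaling (adjusted p = 0.246), for example, and without any 1 MUT library or REG replicate 1 or 3 (adjusted p from 0.0542 to 0.098). Wnt10b, a canonical ligand known to favour osteoblasts over fat cells, had values of 15.7, 16.6 and 11.8 for WT, 2.16, 0.599 and 1.07 for MUT and 5.67, 0.426 and 10.8 for REG. It was 9.82-fold lower in MUT (log2 change -3.30, SE 0.83, adjusted p = 0.0145), although total-read scaling gave an adjusted p of 0.0589 and the call was lost without WT replicate 2 (adjusted p = 0.0563). In REG its 3 values ran from below MUT to near WT, and REG against MUT was not called (log2 change 1.31, interval -0.53 to 3.16, adjusted p = 0.242).

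A further 5 ligands were called, all lower in REG than in MUT. Wnt2b, a canonical ligand, had values of 2.33, 3.26 and 3.19 for WT, 3.53, 6.61 and 3.14 for MUT and 0.303, 0.327 and 3.21 for REG; REG replicates 1 and 2 were low and replicate 3 was at the level of MUT and WT (log2 change -1.95, SE 0.62, adjusted p = 0.0329). Wnt1, the founding member of the family, had values of 0.534, 0.428 and 0.405 for WT, 1.01, 0.909 and 0.969 for MUT and 0.152, 0.169 and 0.318 for REG (log2 change -1.21, SE 0.30, adjusted p = 0.0132). Wnt3a, a canonical ligand, had values of 0.488, 0.269 and 0.421 for WT, 1.28, 0.599 and 2.63 for MUT and 0.506, 0.0784 and 0.159 for REG (log2 change -1.51, SE 0.46, adjusted p = 0.0281). Wnt1 and Wnt3a were low in all libraries, with no value above 2.63. Wnt7a, the closest relative of Wnt7b, had values of 0.355, 0.682 and 0.758 for WT, 1.11, 0.896 and 0.777 for MUT and 0.102, 0.0582 and 0.270 for REG (log2 change -1.36, SE 0.34, adjusted p = 0.0132). Wnt9b, a canonical ligand, had values of 0.169, 1.43 and 0.803 for WT, 2.09, 1.30 and 2.58 for MUT and 0.226, 0.0829 and 0.368 for REG (log2 change -1.98, SE 0.48, adjusted p = 0.0114). Per length, Wnt1, Wnt3a, Wnt7a and Wnt9b stayed under the 95th percentile of the receptor genes in all 3 MUT libraries, the levels of Wnt7a being 1.94, 0.853 and 1.45. Each of these 5 calls was lost with trimmed-mean scaling and with REG replicate 3 alone. That of Wnt1 was also lost without MUT replicate 1 or 3 (adjusted p from 0.104 to 0.108), that of Wnt7a without MUT replicate 1 or 3 (adjusted p from 0.0732 to 0.106) and that of Wnt9b without MUT replicate 1 or 3 (adjusted p from 0.0547 to 0.0648). That of Wnt2b was lost without any 1 WT library, any 1 MUT library or REG replicate 1 or 2 (adjusted p from 0.05 to 0.105). That of Wnt3a was lost without MUT replicate 1 or 3 or REG replicate 2 or 3 (adjusted p from 0.0587 to 0.175).

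The other 10 ligands were not called in any comparison. The most abundant of them were Wnt4, with values of 3.85, 3.14 and 4.91 for WT, 4.08, 4.09 and 4.79 for MUT and 1.30, 9.24 and 5.06 for REG, and Wnt11, with values of 6.32, 6.55 and 7.15 for WT, 2.00, 4.03 and 2.58 for MUT and 5.55, 0.219 and 3.77 for REG. Wnt4 groups overlapped (MUT against WT 0.13, interval -1.13 to 1.38, adjusted p = 0.875). Wnt11 was lower in each MUT library than in each WT library without passing the test (log2 change -1.17, adjusted p = 0.239), and in REG replicate 2 it was at 0.219. Wnt2, Wnt3, Wnt6, Wnt8a, Wnt8b, Wnt9a, Wnt10a and Wnt16 had group means between 0.272 (Wnt6 in REG) and 5.76 (Wnt8a in REG). The highest of these means came from 1 library, since Wnt8a was at 1.07, 15.5 and 0.707 in REG. 

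**Figure D4:**
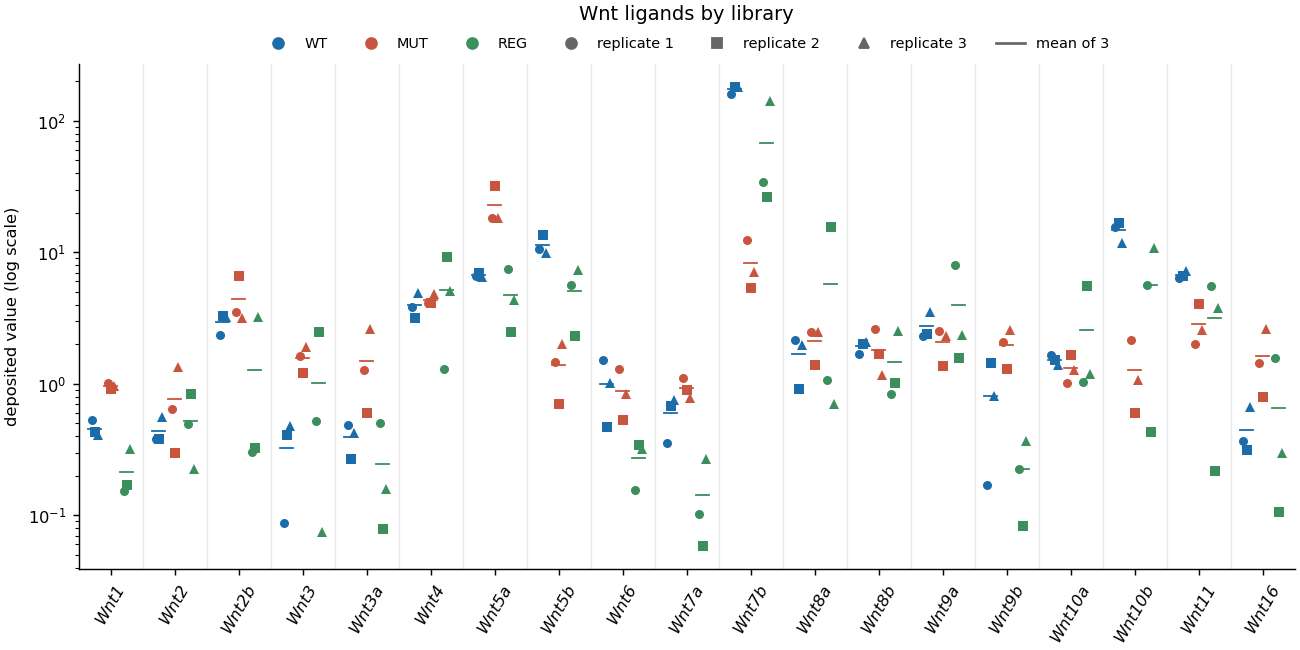
Deposited value (log axis) of the 19 Wnt ligands in the 9 libraries, colour for the group, symbol for the replicate and a line for the mean of 3. Wnt7b stands between 160.1 and 181 in WT and between 5.38 and 12.5 in MUT, and Wnt5a is the ligand with the highest values in MUT (18.1 to 31.8).

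The Frizzled receptors changed their leading member. Fzd1 led the family in WT, with a mean of 23.9 RPM per kilobase (range 11.8 to 32.4), ahead of Fzd5 (4.79) and Fzd7 (3.80). In MUT Fzd4 led with 32.7 (range 15.6 to 47.4), ahead of Fzd2 (5.85) and Fzd1 (5.35), and in REG Fzd1 led with 13.8 (range 9.13 to 20.1). Of the 10 receptors, 1 was higher and 4 lower in MUT than in WT, beside 20.5% higher and 14.6% lower of all genes. In REG against MUT 2 were higher and 5 lower, beside 11.8% and 24.8% of all genes. That split became 4 and 0 with trimmed-mean scaling, 0 and 3 with quantile scaling, 0 and 5 with total-read scaling, 0 and 2 after background subtraction, and 3 and 0 with REG replicate 3 alone. With the 4 scalings in the same order, the first became 1 and 6, 2 and 3, 2 and 1, and 1 and 1.

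Fzd1 (ENSMUSG00000044674, chr5:4753839-4758035, mm10, minus strand), a receptor of the canonical branch, had values of 22.9, 61.2 and 65.0 for WT, 4.15, 2.99 and 5.68 for MUT and 31.0, 13.0 and 22.7 for REG. MUT lay below both other groups, and REG overlapped with the lowest WT library. MUT was 10.1-fold lower than WT (log2 change -3.33, SE 0.50, adjusted p = 0.00208). REG was 4.73-fold higher than MUT (log2 change 2.24, SE 0.50, adjusted p = 0.00855), which quantile scaling (adjusted p = 0.0584) and total-read scaling (adjusted p = 0.0717) did not keep. Its promoter, printed above, was the single one of the 46 with a CATATG word.

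Fzd4 (ENSMUSG00000049791, chr7:89404355-89413134, plus strand), known as the receptor of norrin in blood vessels, had values of 7.17, 7.63 and 5.33 for WT, 18.6, 93.8 and 38.8 for MUT and 5.16, 6.82 and 9.40 for REG. WT and REG overlapped, and every MUT library was higher, replicate 2 by the widest margin. MUT was 5.88-fold higher than WT (log2 change 2.56, SE 0.54, adjusted p = 0.00735), and REG was 5.65-fold lower than MUT (log2 change -2.50, SE 0.54, adjusted p = 0.0075). The second was lost with trimmed-mean scaling (adjusted p = 0.16) and with REG replicate 3 alone (adjusted p = 0.0584). Fzd4 took 34.96, 80.0 and 50.1% of all Frizzled reads in MUT. Endothelial markers (4 genes) took 125 to 148 RPM in WT, 89.9 to 285 in MUT and 94.2 to 173 in REG. By gene, none of the 4 was called higher and 2 were called lower in MUT than in WT, beside 20.5% and 14.6% of all genes. The part of these markers in the values of Fzd4 was not tested.

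A further 3 receptors were called lower in MUT. Fzd5, a canonical receptor, had values of 14.2, 18.0 and 16.5 for WT, 5.21, 4.76 and 2.64 for MUT and 10.6, 15.5 and 15.6 for REG, with MUT below both groups (log2 change -1.91, SE 0.36, adjusted p = 0.00478, and for REG against MUT log2 change 1.67, SE 0.36, adjusted p = 0.00747). Both Fzd5 calls were lost with total-read scaling (adjusted p = 0.148 and 0.101), that for REG against MUT also without MUT replicate 3 (adjusted p = 0.0647), and Fzd5 shares 1233 exon bases with Gm38058 on the opposite strand. Fzd8, a close relative of Fzd5, had values of 8.59, 13.4 and 10.95 for WT, 2.69, 3.19 and 3.23 for MUT and 2.75, 5.96 and 9.52 for REG (log2 change -1.72, SE 0.44, adjusted p = 0.0152). The lowest REG library of Fzd8 was within the range of MUT, and REG against MUT was not called (adjusted p = 0.194). The call for MUT against WT was lost without WT replicate 2 or 3 or MUT replicate 1 or 3 (adjusted p from 0.0547 to 0.0682). It was also lost with total-read scaling (log2 change -0.57, adjusted p = 0.336) and after background subtraction (adjusted p = 0.0983). Fzd7, a receptor found on many stem cells, had values of 7.00, 10.2 and 8.24 for WT, 3.56, 1.12 and 5.35 for MUT and 4.89, 6.53 and 8.96 for REG (log2 change -1.45, SE 0.50, adjusted p = 0.0466). The Fzd7 call was lost under 11 of 22 alternatives, the fit with a replicate block among them (adjusted p = 0.059), and without any 1 WT library or MUT replicate 1 or 2 (adjusted p from 0.0819 to 0.164). Total-read scaling gave Fzd7 a log2 change of -0.31 (adjusted p = 0.727). In RPM per kilobase its mean was 3.80 in WT and 4.09 in MUT.

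Fzd2, Fzd3, Fzd9 and Fzd10 were called for REG against MUT alone, all lower in REG. Fzd2, a receptor of Wnt5a, had values of 5.75, 5.02 and 4.32 for WT, 3.47, 3.85 and 5.31 for MUT and 1.04, 1.07 and 1.91 for REG, and REG lay below both other groups (log2 change -1.44, SE 0.35, adjusted p = 0.0114). Fzd3, known for axon guidance and planar polarity, had values of 3.54, 3.80 and 2.71 for WT, 10.1, 4.64 and 11.4 for MUT and 3.16, 1.14 and 2.99 for REG (log2 change -1.71, SE 0.46, adjusted p = 0.0178); MUT was above both groups without a call against WT (adjusted p = 0.0659). Fzd10 had values of 1.84, 1.41 and 1.56 for WT, 2.09, 1.59 and 1.41 for MUT and 0.350, 0.219 and 1.00 for REG (log2 change -1.30, SE 0.39, adjusted p = 0.0256). Fzd9, a receptor with a known part in osteoblast function, had values of 0.521, 1.10 and 0.651 for WT, 0.926, 0.798 and 0.744 for MUT and 0.0933, 0.165 and 0.463 for REG (log2 change -1.01, SE 0.36, adjusted p = 0.0498). With trimmed-mean scaling the log2 change was -0.13 for Fzd2 (adjusted p = 0.785) and -0.30 for Fzd3 (adjusted p = 0.609). Both calls were also lost with REG replicate 3 alone. In RPM per kilobase Fzd3 in MUT, at 4.45, 1.21 and 5.39, was under the 95th percentile of the receptor genes in all 3 libraries. So were Fzd9, at 2.23, 1.04 and 1.91, and Fzd10, at 3.59, 1.56 and 2.58. The call of Fzd2 was lost without MUT replicate 1 or 3 (adjusted p from 0.0519 to 0.094) and that of Fzd3 without MUT replicate 1 or 3 (adjusted p from 0.0913 to 0.0999). Those of Fzd9 and Fzd10 were kept under 4 of 22 and 10 of 22 alternatives and were lost without any 1 WT library, any 1 MUT library or REG replicate 1 or 2 (adjusted p from 0.0644 to 0.223) and without any 1 MUT library or REG replicate 1 or 2 (adjusted p from 0.0576 to 0.149), and quantile scaling turned the sign of Fzd9 to a log2 change of 0.06. Fzd6, a planar polarity receptor and the single Frizzled not called, had values of 4.80, 6.34 and 6.29 for WT, 2.56, 1.43 and 3.03 for MUT and 0.817, 0.663 and 3.87 for REG (MUT against WT log2 change -1.23, adjusted p = 0.0996).

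Neither co-receptor was called. Lrp5, which carries human bone mass mutations, had values of 32.4, 54.6 and 40.5 for WT, 18.8, 44.4 and 19.8 for MUT and 22.98, 19.2 and 45.1 for REG, and Lrp6, its paralog, 37.0, 64.6 and 56.3 for WT, 12.7, 34.7 and 17.6 for MUT and 18.8, 27.4 and 48.8 for REG. The groups of Lrp5 overlapped, while Lrp6 was lower in each MUT library than in each WT library (log2 change -1.35, interval -2.44 to -0.27, adjusted p = 0.054). With trimmed-mean scaling both were called, lower in MUT (adjusted p = 0.0125 for Lrp5 and 0.00318 for Lrp6) and higher in REG than in MUT (adjusted p = 0.0118 and 0.00436). Neither was called in these comparisons with quantile or total-read scaling or after background subtraction. In RPM per kilobase, Lrp5 was higher in each MUT library (10.9, 15.5 and 12.3) than in each WT library (7.21, 10.6 and 8.68). The MUT and WT libraries of Lrp6 overlapped on that scale.

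Of the 7 R-spondins and Lgr receptors, Rspo2 alone was called. It encodes a secreted amplifier of Wnt signals, and its values were 17.7, 14.9 and 16.8 for WT, 5.53, 9.07 and 7.30 for MUT and 7.16, 7.24 and 12.9 for REG. MUT and REG overlapped and both lay below WT (MUT against WT, log2 change -1.16, SE 0.36, adjusted p = 0.0315). The call was lost under 12 of 22 alternatives, without any 1 WT library or any 1 MUT library (adjusted p from 0.0504 to 0.174) among others, and total-read scaling gave a log2 change of 0.04. Lgr4, a receptor of R-spondins, had values of 8.20, 12.04 and 10.1 for WT, 3.75, 13.4 and 3.12 for MUT and 7.10, 4.34 and 8.96 for REG, with overlapping groups (adjusted p = 0.246). Lgr5, the stem cell marker among these receptors, had values of 1.82, 1.55 and 1.83 for WT, 4.25, 11.04 and 6.48 for MUT and 10.96, 15.8 and 1.45 for REG. Its 2 highest REG libraries, replicates 1 and 2, were above all WT libraries, and REG replicate 3 was not. MUT was likewise above WT without passing the test (log2 change 1.76, interval 0.15 to 3.37, adjusted p = 0.0825). Lgr6, Rspo1, Rspo3 and Rspo4 had group means between 0.548 (Rspo4 in REG) and 6.15 (Lgr6 in MUT). In RPM per kilobase, Rspo1 led the role in MUT with a mean of 11.5 (range 8.73 to 12.9), beside 1.14 in WT (range 0.349 to 1.71). Calls for MUT against WT depended on scaling. Trimmed-mean scaling gave 0 higher and 2 lower of the 7, and quantile scaling 1 and 0. Total-read scaling gave 3 and 0 (38.7% and 2.89% of all genes), and background subtraction 2 and 0 (14.1% and 3.52%).

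The secreted inhibitors held the largest change for MUT against WT, that of Sfrp2, and the 2 genes whose calls were kept under each alternative in both comparisons, Sfrp2 and Sfrp4. Of 10, none was higher and 3 were lower in MUT than in WT, beside 20.5% higher and 14.6% lower of all genes, and 4 were higher and none lower in REG than in MUT, beside 11.8% and 24.8%. Sfrp2, Sfrp4 and Dkk3, the 3 lower ones, kept that call under trimmed-mean, quantile and total-read scaling and after background subtraction, although total-read scaling also called 1 inhibitor higher in MUT and 1 lower in REG.

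Sfrp2 (ENSMUSG00000027996, chr3:83766321-83774316, mm10, plus strand) encodes a secreted Frizzled-related protein of mesenchymal cells. Its values were 46.3, 89.8 and 64.4 for WT, 1.35, 2.89 and 1.34 for MUT and 15.2, 45.2 and 40.8 for REG. The MUT values were far below all others and REG was below WT in each library. MUT was 30.5-fold lower than WT (log2 change -4.93, SE 0.50, adjusted p = 0.000742), and REG was 14.5-fold higher than MUT (log2 change 3.86, SE 0.50, adjusted p = 0.00141). The RPM per kilobase of Sfrp2 in MUT, 3.48, 4.42 and 3.72, were above the 95th percentile of the receptor genes in replicate 2 and under it in the others.

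Sfrp4 (ENSMUSG00000021319, chr13:19623104-19632994, plus strand), a relative whose loss in people thins cortical bone, had values of 19.6, 55.6 and 71.0 for WT, 4.14, 3.79 and 3.60 for MUT and 58.02, 85.7 and 46.9 for REG. MUT lay below both groups, and WT and REG overlapped. MUT was 10.2-fold lower than WT (log2 change -3.35, SE 0.49, adjusted p = 0.0019), and REG was 14.7-fold higher than MUT (log2 change 3.88, SE 0.49, adjusted p = 0.00129). Sfrp4 was the leading inhibitor by reads in all 3 REG libraries, with 52.6, 49.7 and 31.7% of inhibitor reads, whereas Sfrp2 led in WT replicates 1 and 2.

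Dkk3 (ENSMUSG00000030772, chr7:112116017-112159057, minus strand), the most divergent dickkopf protein, had values of 28.7, 64.8 and 37.2 for WT, 1.91, 2.89 and 1.48 for MUT and 16.3, 5.69 and 27.4 for REG. The groups did not overlap, with REG between WT and MUT. MUT was 17.3-fold lower than WT (log2 change -4.11, SE 0.56, adjusted p = 0.00158), and REG was 5.89-fold higher than MUT (log2 change 2.56, SE 0.56, adjusted p = 0.00811). With MUT replicate 2 as the single MUT library, whose spread was then taken from the other groups, the second had an adjusted p of 0.182. The suture mesenchyme and fibroblast markers moved the same way, with all 7 lower in MUT (14.6% of all genes) and 5 of 7 higher in REG than in MUT (11.8% of all genes); their part in the values of Sfrp2, Sfrp4, Dkk3 and Fzd1 was not tested.

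Wif1, an inhibitor that binds Wnt proteins directly, had values of 10.5, 17.2 and 24.7 for WT, 6.36, 13.5 and 4.84 for MUT and 14.7, 23.1 and 23.7 for REG. MUT replicate 2 was within the range of WT. REG was higher than MUT (log2 change 1.37, SE 0.47, adjusted p = 0.0441), a call kept under 7 of 23 alternatives and lost without WT replicate 2 or 3, MUT replicate 1 or 3 or REG replicate 2 or 3 (adjusted p from 0.0554 to 0.204). It was the leading inhibitor by reads in each MUT library, and one of the 7 genes above the receptor genes there. Dkk2, with values of 2.87, 7.67 and 5.82 for WT, 1.92, 2.69 and 1.79 for MUT and 1.36, 0.408 and 2.95 for REG, was lower in each MUT library than in each WT library without a call (log2 change -1.14, adjusted p = 0.131). Sfrp1 had values of 1.71, 3.15 and 2.32 for WT, 2.29, 2.50 and 2.34 for MUT and 2.16, 1.69 and 2.85 for REG, and the 3 groups overlapped. Its log2 change for REG against MUT was -0.10 (interval -0.86 to 0.66) and became 1.13 with trimmed-mean scaling (adjusted p = 0.0189). Sfrp5, Frzb, Dkk1 and Dkk4 had group means between 0.110 (Sfrp5 in REG) and 2.29 (Dkk1 in REG) and were not called.

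**Figure D5:**
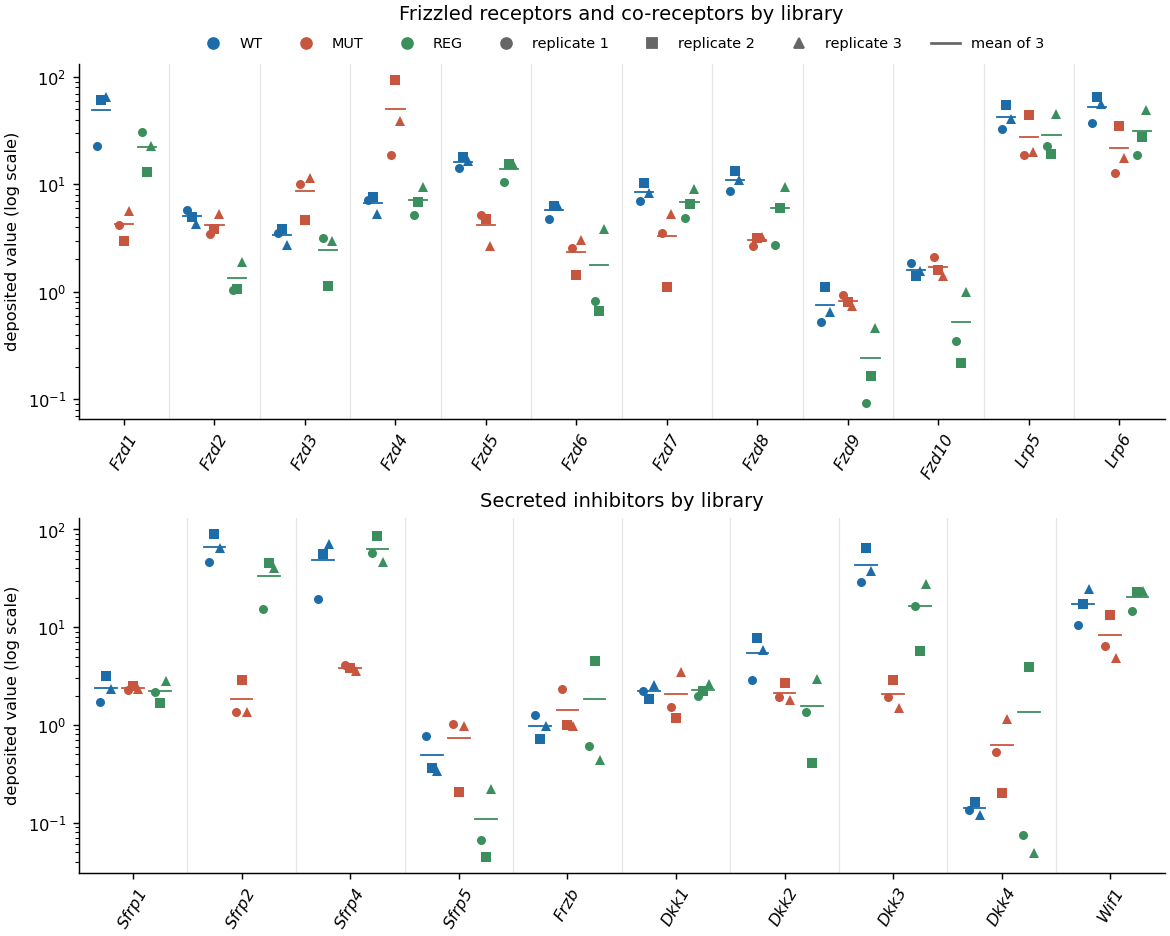
Deposited value (log axis) of the 10 Frizzled receptors and 2 co-receptors (top) and the 10 secreted inhibitors (bottom) in the 9 libraries, colour for the group, symbol for the replicate and a line for the mean of 3. Fzd4 is highest in MUT (18.6 to 93.8), and Sfrp2, Sfrp4 and Dkk3 are at 1.34 to 4.14 in MUT and at 5.69 or more in the other groups.

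Of the 10 target and feedback genes, Sp5 alone was called. It encodes a zinc finger factor induced by beta-catenin, and its values were 0.697, 0.612 and 0.510 for WT, 1.26, 2.79 and 2.00 for MUT and 0.187, 0.231 and 0.111 for REG. All MUT libraries were above all others, at low levels. MUT was 2.37-fold higher than WT (log2 change 1.25, SE 0.35, adjusted p = 0.0211) and REG was 4.25-fold lower than MUT (log2 change -2.09, SE 0.35, adjusted p = 0.00293). Both calls were lost with quantile scaling (adjusted p = 0.23 and 0.0808), and the first also with trimmed-mean scaling (adjusted p = 0.337) and without any 1 WT library or MUT replicate 2 or 3 (adjusted p from 0.0507 to 0.11). Per length the Sp5 levels in MUT, 3.33, 4.36 and 5.73, were under the 95th percentile of the receptor genes except in replicate 2.

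Axin2, the feedback gene that also marks suture stem cells, had values of 20.5, 24.2 and 23.3 for WT, 4.60, 16.9 and 4.82 for MUT and 23.4, 7.90 and 23.3 for REG. By these values it was lower in each MUT library than in each WT library, with replicate 2 the closest to WT. It did not pass the test (log2 change -1.59, SE 0.57, adjusted p = 0.0533). Trimmed-mean scaling called it lower (log2 change -2.43, adjusted p = 0.00508), as did the fit without MUT replicate 2 (adjusted p = 0.0167). Total-read scaling gave a log2 change of -0.39 (adjusted p = 0.535). In RPM per kilobase MUT replicate 2, at 10.4, was above every WT library (8.04 to 8.84). REG replicates 1 and 3 were at the WT level and replicate 2 was within MUT. Nkd2, a feedback inhibitor that acts on Dishevelled, had values of 7.58, 10.2 and 6.07 for WT, 2.07, 6.99 and 2.47 for MUT and 8.69, 8.54 and 6.10 for REG, with overlapping groups (MUT against WT log2 change -1.14, adjusted p = 0.078). Lef1, Tcf7, Nkd1, Notum, Rnf43, Znrf3 and Apcdd1 had group means between 0.780 (Rnf43 in REG) and 8.92 (Znrf3 in WT) and were not called. The log2 changes of the 10 genes for MUT against WT had a median of -0.26, beside 0.18 over all genes.

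Of 67 other genes of the pathway in the table, which include Twist1, none was higher and 34 were lower in MUT than in WT (50.7%, beside 14.6% of all genes lower). For REG against MUT, 23 were higher (34.3%, beside 11.8%) and 3 lower (4.48%, beside 24.8%), and none was called for REG against WT (12 had an unadjusted p under 0.05). These counts depended on scaling too: in MUT against WT none was higher and 48 lower with trimmed-mean scaling, 2 and 16 with quantile scaling, 8 and 7 with total-read scaling, and 2 and 7 after background subtraction. For REG against MUT the splits were 50 and 0, 7 and 5, 6 and 8, and 4 and 4 in the same order. Leaving out WT replicate 2, WT replicate 3 or MUT replicate 1 gave 19, 22 or 21 calls in place of 34, and leaving out MUT replicate 1 or 3 gave 12 or 10 in place of 26.

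The 6 with the smallest p for MUT against WT were Jun, Nfatc1, Runx2, Rac1, Dact3 and Prickle2. Jun, an AP-1 factor, had values of 30.9, 78.5 and 48.8 for WT, 1.90, 2.10 and 3.07 for MUT and 18.1, 16.4 and 36.1 for REG (log2 change -4.21, SE 0.45, adjusted p = 0.000864). Nfatc1, the calcium-regulated factor of osteoclasts, had values of 50.1, 71.0 and 57.0 for WT, 12.4, 7.64 and 11.2 for MUT and 50.3, 50.9 and 54.7 for REG (log2 change -2.48, SE 0.33, adjusted p = 0.00142). Runx2, the master factor of osteoblasts, had values of 54.3, 98.3 and 81.5 for WT, 11.6, 12.4 and 9.34 for MUT and 35.1, 29.6 and 57.7 for REG (log2 change -2.74, SE 0.38, adjusted p = 0.00165). In all 3 genes the MUT libraries lay below every other library. Rac1, a small GTPase of the polarity branch, had values of 41.0, 46.4 and 37.5 for WT, 9.19, 8.32 and 4.40 for MUT and 28.7, 30.6 and 52.0 for REG (log2 change -2.51, SE 0.39, adjusted p = 0.00235). Dact3, a binding partner of Dishevelled, had values of 21.2, 21.2 and 20.3 for WT, 3.78, 5.84 and 4.26 for MUT and 6.44, 8.50 and 11.7 for REG (log2 change -2.11, SE 0.34, adjusted p = 0.00269). Prickle2, a planar polarity protein, had values of 28.4, 44.7 and 45.1 for WT, 6.57, 4.54 and 5.44 for MUT and 10.1, 14.9 and 32.4 for REG (log2 change -2.74, SE 0.45, adjusted p = 0.00281). Dact3 was the one of these 6 that was not called for REG against MUT (adjusted p = 0.0721).

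Of the 67 other pathway genes, 26 were called for REG against MUT (38.8%, beside 36.6% of all genes). By level of the pathway, the share called ran from 26.7% (secretion and surface) to 66.7% (general targets). At the surface, Ror2 (1.95) and Ryk (1.47), the receptors of Wnt5a-type signals, and Cthrc1 (2.94), a secreted protein of repair, were higher by the log2 changes given. In the cytoplasm, Dvl1 (1.42), Axin1 (1.90), Gsk3a (2.18), Csnk1a1 (1.22), Fbxw11 (1.19) and Tnks2 (1.60) were higher. In the nucleus, Ctnnb1, which encodes beta-catenin, was higher by 1.69, with values of 101, 106 and 99.8 for WT, 15.3, 47.2 and 16.4 for MUT and 66.4, 54.7 and 115 for REG. Its partners Pygo1 (0.98) and Pygo2 (1.53) and the corepressor Tle2 (1.89) were higher as well. Of the polarity and calcium genes, Prickle2 (1.57), Daam2 (1.05), Nfatc1 (2.30) and Rac1 (2.30) were higher. Of the general targets, Myc (1.58), Cd44 (2.24), Jun (3.07), Ccn4 (2.38), Runx2 (1.79) and Tnfrsf11b (1.29) were higher. The 3 lower genes were Dvl3 (-2.39), a Dishevelled, Sostdc1 (-1.43), a secreted inhibitor, and Vangl2 (-1.71), a polarity protein. Gsk3a and Tle2 had 1 REG library far above the rest, replicate 2, at 39.0 and 29.8.

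For REG against WT, the comparison of operated Twist1+/- with wild type, no gene was called. For Wnt7b the log2 change was -1.78 (interval -3.11 to -0.45), for Sfrp2 -1.07 (-2.19 to 0.04), for Sfrp4 0.53 (-0.56 to 1.61) and for Fzd4 0.06 (-1.15 to 1.26). Without REG replicate 3, 8 of the 58 genes were called, beside 5.51% of 29097 genes. Of the 8, 7 were lower (4.1% of all genes): Fzd6 (log2 change -2.49, SE 0.40), Wnt7b (-2.52, SE 0.42), Wnt2b (-2.28, SE 0.41), Dkk2 (-2.25, SE 0.51), Lef1 (-2.15, SE 0.46), Fzd2 (-1.93, SE 0.36) and Fzd10 (-1.62, SE 0.35). Lgr5 alone was higher (2.70, SE 0.44; 1.41% of all genes). Adjusted p-values of the 8 ran from 0.018 to 0.0397. With REG replicate 3 as the single REG library, none of the 58 genes and no other gene was called, the lone library being assumed to vary like the other groups. The difference between replicate 3 and replicates 1 and 2 and that between the column name forms cannot be told apart.

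In the authors' deposited table, 2 of the 58 genes were higher and 9 lower in MUT than in WT at a false discovery rate under 0.05, which 25.5% of its 43644 genes met. All 11 were also called here; Sp5, Fzd7 and Rspo2 were called here alone. For REG against MUT the authors' deposited table had 8 higher and 12 lower (41.5% of its genes), 19 of which were called here too, the other being Sfrp5, and for REG against WT none. For Sfrp2 the authors' deposited table gave a log2 ratio of -5.17 for MUT against WT and 4.18 for REG against MUT, and for Wnt7b -4.39 and 3.02.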

How the data were processed

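Total RNA of 9 coronal suture samples, 3 per group, was sequenced. The submitters' processing notes name STAR 2.6.1d, mm10 and Partek. Not given in the sources used here were the read counting, its use of strand, the annotation and the normalization. The deposited matrix of the authors holds a normalised signal per gene and library, and the deposited gene table holds the authors' log2 ratios, p-values and false discovery rates. The 2 were joined by row order, after 4 statistics recomputed from the matrix matched the table for 43644 of 43644 genes (relative tolerance 1e-06). In each library the signal behaved as estimated reads plus 1, times 1 factor, so estimated reads were the signal divided by the lowest signal, minus 1.

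A gene was kept if 3 or more libraries reached 0.367, and the 29107 kept were tested on log2(signal + 0.367) with limma 3.58.1 in R 4.3.3, all 9 libraries in 1 fit without a replicate term, with Benjamini-Hochberg adjustment over all genes tested and a threshold of 0.05. All adjusted p-values in the text are from this fit unless they are named as the authors'. Log2 changes and folds are on this scale, which understates the change of low genes, and intervals are 95% intervals of the fit. An exact permutation test of 3 against 3 libraries cannot go below 0.1 and was not used. The script was tested on simulated data. Reads per kilobase used GENCODE M21 exon lengths. Promoters came from RefSeq (GRCm38.p6), and no test was made on them.

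The 58 genes, the other pathway genes and the marker lists were chosen with earlier results of these data known. Values of all 9 libraries are given for each of the 58 genes called in any comparison and, of the rest, for the 2 per role with the highest mean. Other pathway genes are named if called for REG against MUT or among the 6 of smallest p for MUT against WT. Of 69 listed pathway symbols, 67 were in the table, and Wisp1 and Wisp2 are older symbols of Ccn4 and Ccn5, which are also listed. Alternatives were trimmed-mean, quantile and total-read scaling, subtraction of the receptor gene background, other filters and pseudocounts, other variance models, a replicate block, and fits without single libraries.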

Additional observations from a re-analysis of the deposited data

How the results depend on the processing

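Of the 34 called changes of the 58 genes, 757 values were computed under alternatives: 580 stayed on the same side of the threshold, 175 lost the call and 2 turned sign. Those 2 were Fzd9 for REG against MUT (log2 change 0.06 with quantile scaling) and Rspo2 for MUT against WT (0.04 with total-read scaling). Of 140 changes not called, 137 of 3004 values gained a call and 1 was called with the opposite sign, Sfrp1 for REG against MUT (1.13 with trimmed-mean scaling). The causes were not tested. The low depth of MUT replicate 2 limits what low genes can show.

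With quantile scaling the genes called were 5181 for MUT against WT and 4200 for REG against MUT, the 58 genes gave 9 for REG against MUT, and the pathway genes gave 18 and 12. Background subtraction gave 4275 and 3970 genes, 8 of the 58 for REG against MUT, and 9 and 8 pathway genes. Trimmed-mean scaling gave 23 of the 58 for MUT against WT and 50 pathway genes for REG against MUT. Total-read scaling gave 23 of the 58 for MUT against WT, and 15 and 14 pathway genes. A 10 times higher minimum gave 4895 and 3652 genes, and 11 of the 58 for REG against MUT. Array quality weights gave 17589 genes and 35 of the 58 for MUT against WT. A fit of only the 2 groups compared gave 26 of the 58 for MUT against WT, and 6458 genes, 13 of the 58 and 13 pathway genes for REG against MUT. MUT replicate 2 alone, assumed to vary like the other groups, gave 1810 and 1450 genes, 8 and 5 of the 58, and 9 and 6 pathway genes.

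Leaving out 1 library gave 3638 to 12219 genes, 8 to 21 of the 58 and 19 to 40 pathway genes for MUT against WT. It gave 3375 to 11142 genes, 8 to 20 of the 58 and 10 to 30 pathway genes for REG against MUT. For REG against WT it gave 0 to 1604 genes, 0 to 8 of the 58 and 0 to 4 pathway genes, the highest each time without REG replicate 3.

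Libraries of the same replicate number were not more alike than others. Correlations of their deviations ran from -0.20 to 0.10, and those between libraries of unlike number from -0.22 to 0.38. Whether the samples were paired cannot be settled from these values. With a replicate block 13 of the 58 genes were called for MUT against WT and 19 for REG against MUT, among 8766 and 9373 genes, with 34 and 23 pathway genes. The block gave adjusted p-values of 0.059 for Fzd7, 0.0541 for Rspo2 and 0.0813 for Fzd9.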

Other observations

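Several of the 58 genes that no comparison called had 1 high library, REG replicate 2. Wnt8a, a ligand, was at 15.5 there and at 1.07 and 0.707 in the other REG libraries. Rspo1, an amplifier of Wnt signals, was at 13.3 there, Wnt4 at 9.24, Wnt10a at 5.55, Frzb, a secreted inhibitor, at 4.50, Dkk4, another, at 3.95, and Wnt3 at 2.46. This library had 30272185 estimated reads, and these genes were chosen after their values were seen.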
